A study of Mus musculus with 18 samples.

Results

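Endothelial cells of the cortex of sham-operated mice were described here in 6 RNA-seq libraries, chosen by their titles: 3 from the ipsilateral side and 3 from the contralateral side, of 18 libraries in the series. All 6 carried the label WT, came from adult mice given tamoxifen at 75 mg per kg, and were made from cells taken on day 7. The study set sham surgery beside middle cerebral artery occlusion (MCAO), a surgical model of ischaemic stroke, in WT mice and in mice with an inducible endothelial deletion of Hdac2 or Ezh2, driven by Cdh5CreERT2. Cells had been sorted as positive for CD31 and negative for CD41 and CD45, and sequenced by an ultra-low-input method that copies polyadenylated RNA. Tamoxifen, sham surgery and cell sorting were common to both sides, and the labels do not say whether the WT mice carried the Cre. No label said whether a given number marks 1 mouse on both sides, or how many mice went into a library. The p-values below therefore measure only the spread between libraries, which the main fit estimates over all 18.

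The endothelium of the brain forms the blood-brain barrier. Its cells are joined by tight junctions, carry few transport vesicles, and pass glucose, amino acids and hormones through dedicated carriers while ATP-driven pumps return many drugs to the blood. The barrier state is maintained by Wnt and Norrin signals received through Frizzled receptors, and the vessels are graded from arteries through capillaries to veins, each with its own markers.

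Total counts ran from 32563872 to 39071573 in the ipsilateral libraries and from 29451282 to 48093318 in the contralateral ones. A count above 0 was found for 16927 to 19868 of 21638 genes per library, and 3 counts corresponded to 0.0639 to 0.102 CPM (counts per 1000000 after scaling by the trimmed mean of M-values, TMM). Across 11587 genes, Pearson correlations of log2(CPM + 1) ran from 0.935 to 0.973 within a side (median 0.950, 6 pairs) and from 0.925 to 0.967 between sides (median 0.952, 9 pairs). The median correlation within a side was thus no higher than that between sides. The ipsilateral replicates 2 and 3 differed from the other 4 libraries by 2 measures. First, 9 predicted genes whose levels moved together took 6.71% and 3.93% of their counts against 0.345% to 1.06% in the other 4 libraries. These genes were chosen for their wide spread over the same libraries, so that some libraries differ on them was built into the choice. Second, 1466 olfactory and vomeronasal receptor genes, which endothelial cells are not known to use, summed to 716 and 463 CPM of the unscaled total against 207 to 326.

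At a threshold of 1 CPM, 10307 genes (47.6%) were detected in all 6 libraries. Of these, 6532 reached 10 CPM, 1244 reached 100 CPM and 39 reached 1000 CPM in every library, while 376 genes had 0 counts in all 6. The 10 most abundant genes took 12.6% to 20.6% of the counts of a library and the 1000 most abundant took 60.2% to 69.6%. To rank genes against each other, CPM was divided by the deposited feature length, which gives CPM per kb, and genes were ordered by the mean of log2(CPM per kb + 0.1) over the 6 libraries.

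The top 25 by this level were led by 4 globin genes, with thymosin beta 4 and a predicted gene between them. Hba-a2 stood first at 34074 ± 16438 CPM per kb (SD over the 6 libraries, here and for the levels that follow), and Hba-a1, Hbb-bs and Hbb-bt held ranks 2, 3 and 6. Tmsb4x, which encodes an actin-monomer-binding peptide, held rank 4 at 16563 ± 5207. Further down came the antigen-presentation gene B2m at 8122 ± 3076, the membrane protein gene Itm2a at 7029 ± 2805, and Bsg, the gene of the barrier glycoprotein basigin, at 6187 ± 4035 CPM per kb. The surface markers Ly6a and Ly6c1, which many brain endothelial cells carry, held ranks 10 and 11 at 4519.6 ± 1698 and 4538 ± 1947. They were followed by the copper chaperone gene Atox1 (3360.4 ± 936), the ribosomal gene Rpl38, the antiviral gene Ifitm3 and the G-protein subunit gene Gng11. Ubb, Tmsb10, Uqcrb, Gm49909, Ndufa1, Ppia, Gm10801, Cst3, Rps27l and S100a11 filled ranks 16 to 25, at 1277 to 2390.3 CPM per kb.

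The order was shared by the libraries. Between 20 and 23 of the 25 genes were also among the 25 highest of each single library, and 24 or 25 were among its 100 highest. The widest spread belonged to Gm10801, whose rank ran from 6 to 157. Division by length weighs here, because 24 of the 25 genes were shorter than 2000 bases, with a median of 860 bases against 4274 over the genes tested. By CPM alone, 15 of the 25 kept a place. Among the 10 that entered in their stead were Slco1a4, Sptbn1, Ly6e, Flt1, Gpcpd1, Abcg2, Prdx1, Sub1 and Tm4sf1. They include a barrier transporter (Slco1a4), a drug efflux pump (Abcg2) and a VEGF receptor (Flt1). Gm49909 overlaps the spans of Myl12a and Myl12b on the same strand, and Ppia, Ubb, Tmsb4x and the ribosomal genes have processed copies elsewhere in the genome, so their counts are uncertain.

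**Figure D1:**
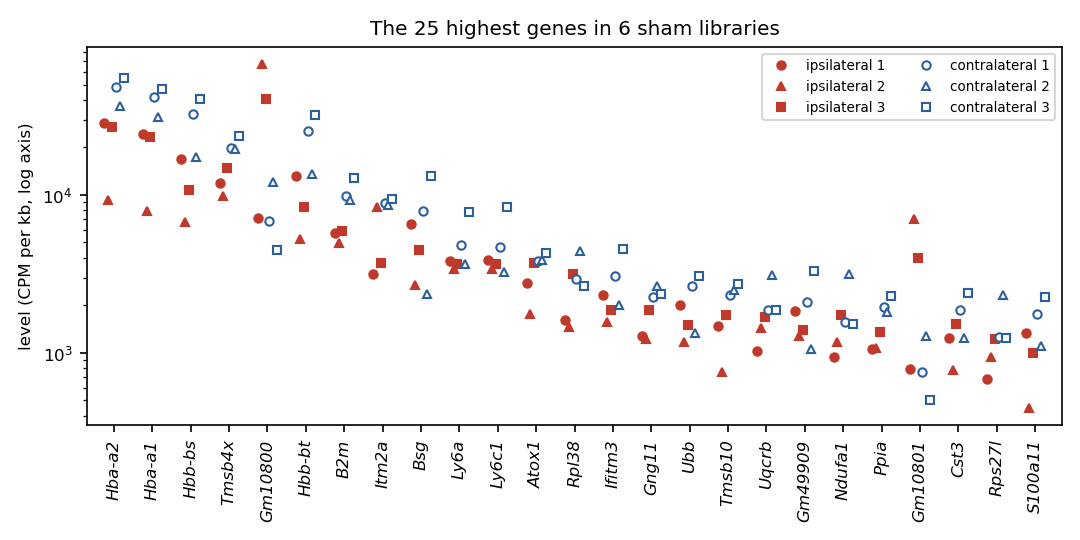
Level of the 25 highest genes (CPM per kb, log axis) in each of the 6 sham libraries, in order of their mean log2 level; filled symbols are ipsilateral and open symbols contralateral libraries, 1 symbol shape per replicate number. The contralateral libraries lie above the ipsilateral ones for most genes, while Gm10800 and Gm10801 are high in ipsilateral replicates 2 and 3.

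The globins are proteins of red cells, and by mean level per length they outranked every gene of the endothelial lists. This order did not hold for all genes in each library. In ipsilateral replicate 2, Itm2a (8375 CPM per kb) lay above Hba-a1 (7885), Hbb-bs (6727) and Hbb-bt (5291). The 2 alpha and 2 beta genes took 7.32%, 2.44% and 5.67% of the counts in the ipsilateral libraries and 10.6%, 7.27% and 11.2% in the contralateral libraries (95% Wilson interval of the lowest value 2.44% to 2.45%). Intervals and floors cover counting error only, since PCR copies of a molecule were not told apart. Replicate 2 was the lowest library of both sides. Other red-cell genes were far lower: Alas2, the erythroid enzyme of haem synthesis, stood at 3.40 to 17.2 CPM, and the anion exchanger gene Slc4a1 at 0 to 0.618. The genes of each globin pair are nearly the same sequence. In GENCODE M21 the coding sequences of Hba-a1 and Hba-a2 (426 bases each, chromosome 11) differ at 1 base, and so do those of Hbb-bs and Hbb-bt (441 bases each, chromosome 7). The windows below show those bases in capitals, 5′ to 3′ on the coding strand, on mouse build GRCm38.

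Hba-a1 (chr11:32284313-32284373, plus strand): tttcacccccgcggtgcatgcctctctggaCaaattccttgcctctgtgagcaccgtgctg
Hba-a2 (chr11:32297130-32297190, plus strand): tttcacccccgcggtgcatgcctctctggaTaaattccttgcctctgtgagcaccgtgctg
Hbb-bs (chr7:103826668-103826722, minus strand): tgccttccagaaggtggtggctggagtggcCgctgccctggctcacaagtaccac
Hbb-bt (chr7:103812659-103812713, minus strand): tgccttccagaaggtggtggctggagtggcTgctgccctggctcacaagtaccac

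The counts of each pair ran together. The ratio of Hba-a1 to Hba-a2 counts was 1.04 to 1.05 in the 6 libraries, and that of Hbb-bs to Hbb-bt was 1.38 to 1.41. In contrast, the ratio of both alpha to both beta genes ranged from 1.41 to 2.60. The levels of the single members of a pair, given above and below, are therefore uncertain.

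Barrier junction genes ranked high. Of 17 such genes, 16 reached 1 CPM in all 6 libraries, and their median level was 49.1 CPM per kb against 1.64 over the 17094 genes tested. Cldn5 (chromosome 16, 18776847 to 18778262, plus strand) encodes claudin-5, the main tight-junction strand protein of brain endothelium, and stood at rank 61. Its level was 1429.9, 508 and 1088 CPM in the ipsilateral libraries and 1490.2, 729 and 1343 in the contralateral ones. Replicate 2 was the lowest on both sides, and the sides overlapped. Cldn5 (775 CPM per kb) was followed by the catenin gene Ctnnb1 (250.4 ± 57.3), the adhesion genes Esam (101 ± 9.84) and Cdh5 (73.5 ± 10.4), occludin gene Ocln (94.3 ± 15.3) and the scaffold gene Tjp1 (59.4 ± 14.5 CPM per kb). Ctnnb1 shares 14.6% of its exon bases with Ulk4 on the opposite strand, so its counts are uncertain. At the other end Cldn12 stood at 2.47, and Cgn, the gene of the epithelial plaque protein cingulin, at 0.0225 CPM per kb, with a count of 0 in 3 libraries, while its paralogue Cgnl1 stood at 24.5.

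Carriers of nutrients and hormones ranked with the junction genes. All 16 listed carriers reached 1 CPM in the 6 libraries, and their median was 63.9 CPM per kb. The organic anion carrier gene Slco1a4 led at 530.1 ± 139, ahead of the thyroid hormone carrier gene Slco1c1 at 345 ± 37.8 and the glucose carrier gene Slc2a1 at 264 ± 30.2 CPM per kb. Slc2a1 varied little, with 1035, 752 and 1006 CPM ipsilaterally and 917, 988 and 866 contralaterally. Mfsd2a, a lipid carrier that keeps vesicle traffic low, stood at 62.3 ± 9.13, and the amino acid carrier genes Slc7a5 and Slc3a2, which form 1 heterodimer, at 60.9 ± 10.8 and 61.3 ± 9.49 CPM per kb.

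Among efflux pumps, Abcg2 (264 ± 92.9 CPM per kb) and Abcb1a (169 ± 24.8), the genes of the breast cancer resistance protein and of P-glycoprotein, exceeded Abcc4 (32.2 ± 5.39). Abcb1b, the second P-glycoprotein gene of the mouse, stood at 1.58, and Abcc1 at 0.279 CPM per kb. Of the receptors that carry cargo across the cell, the transferrin receptor gene Tfrc stood at 107 ± 35.1 and the insulin receptor gene Insr at 13.0 ± 3.50, while Lrp1, a receptor gene often studied at the barrier, was at 0.0915 CPM per kb. The caveolar genes Cav2 (304 ± 108) and Cav1 (153 ± 28.8) ranked above Tfrc. Plvap, which marks leaky, fenestrated endothelium, was low at 2.02 to 13.3 CPM, with ipsilateral replicate 1 as its highest library.

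Receptors and targets of Wnt and Norrin signals were detected throughout, with all 20 genes at 1 CPM or more in the 6 libraries. The receptor genes Fzd6 (56.8 ± 5.44 CPM per kb) and Fzd4 (16.2 ± 1.22) were accompanied by the Norrin co-receptor gene Tspan12 (48.1 ± 5.78) and by Reck (24.2 ± 5.92), while the co-receptor gene Lrp6 (7.29 ± 1.40) was above Lrp5 (0.361 ± 0.0702). Downstream, Lef1 was the highest of the 4 TCF and LEF factors at 71.2 ± 41.3. Its 6 values were 419.8, 538 and 588 CPM ipsilaterally and 459, 1352 and 399 contralaterally. Only contralateral replicate 2 was far from the others. The targets Tnfrsf19 (45.0 ± 6.12), Apcdd1 (21.1 ± 3.84) and Axin2 (6.60 ± 1.22 CPM per kb) and the barrier transcription factor genes Foxf2 (57.2 ± 10.4) and Foxq1 (39.9 ± 5.00) were present in every library.

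Capillary markers stood above arterial and venous ones. The median level was 120 CPM per kb over 7 capillary genes, 15.0 over 11 arterial genes and 9.32 over 10 venous genes. In these pooled cells, fewer cells of a type and less RNA per cell cannot be told apart. Rgcc (691 ± 211 CPM per kb) and the carbonic anhydrase gene Car4 (563 ± 275) led the capillary list. Gkn3 (537 ± 194) and the matrix Gla protein gene Mgp (117 ± 55.7) led the arterial list, whereas the artery connexin gene Gja5 stood at 0.294 CPM per kb. Slc38a5 (65.5 ± 12.8) led the venous list, and the venule genes Ackr1 and Selp reached at most 8.13 and 1.30 CPM in any library.

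In the VEGF and angiogenesis list, 10 of 14 genes reached 1 CPM in all 6 libraries. Flt1, the VEGF receptor 1 gene, stood at 172 ± 24.5 CPM per kb, with 2508, 2406 and 2587 CPM ipsilaterally and 2150.4, 2565 and 1733 contralaterally. Kdr, the gene of VEGF receptor 2, stood at 45.7 ± 13.4, and Pdgfb, the signal that recruits pericytes, at 50.9 ± 9.90 CPM per kb. Lower levels were found for the lymphatic VEGF receptor gene Flt4 (3.53) and the co-receptor gene Nrp2 (2.42). The ligand gene Vegfa stood at 0.512, the tip-cell genes Apln and Cxcr4 at 0.877 and 0.311, and Esm1 at 5.46 CPM per kb. The flow-responsive factor genes Klf2 (312 ± 42.5) and Klf4 (199 ± 55.4) ranked 203 and 313. In the basement membrane list, Sparc (209.6 ± 33.2), Fn1 (76.7 ± 8.33) and the collagen IV genes Col4a1 (33.4 ± 3.65) and Col4a2 (18.1 ± 1.65) stood above the laminin genes, of which Lamb2 was the highest at 14.3 ± 4.00 CPM per kb.

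Per length, energy and protein synthesis genes had the highest list medians of rank apart from the red-cell list. The median gene rank by CPM per kb lay at percentile 98.7 for 77 nuclear genes of oxidative phosphorylation and at 98.2 for the ribosomal proteins, above 97.7 for the capillary list and 96.8 for 20 pan-endothelial genes. Ranked by CPM without length the order turned: the capillary list lay at 99.2, flow-responsive genes at 98.02, oxidative phosphorylation at 97.97 and ribosomal proteins at 97.9. Over the genes tested, the median by CPM per kb lay at 60.5. Interferon-response genes lay at 96.6, with Ifitm3 and Ifitm2 (1062 ± 542 CPM per kb) far ahead of Irf7 (8.32). Ifitm2 shares 40.9% of its exon bases with Gm45717 on the same strand, so its counts are uncertain. Immediate early genes, which rise within minutes of a stimulus, lay at 93.8. Fos was their highest at 335 ± 131 CPM per kb, and 20 of 22 reached 1 CPM in every library, whereas the neuronal activity genes Arc and Npas4 reached at most 1.09 and 0.319 CPM. Cell-cycle genes lay at 48.1. The mitotic genes Mki67, Aurkb, Ccnb1 and Cdk1 stayed at or under 1.19 CPM in every library, and Pcna, which also serves DNA repair, stood at 91.6 to 131 CPM.

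The genes deleted elsewhere in the study were both measured in these WT cells. Hdac2, a class I histone deacetylase gene (chromosome 10, 36974544 to 37001889, plus strand), had 95.0, 119 and 73.1 CPM in the ipsilateral libraries and 76.2, 129.7 and 130.4 in the contralateral ones. It was the highest of the 4 class I genes per length, at 23.2 ± 5.81 CPM per kb, ahead of Hdac1 (12.5 ± 2.39), Hdac3 (4.39 ± 1.44) and Hdac8 (0.925 ± 0.410). Ezh2, the methyltransferase gene of Polycomb repressive complex 2 (chromosome 6, 47530139 to 47595341, minus strand), was low and uneven, with 13.5, 7.23 and 7.20 CPM ipsilaterally and 11.4, 1.49 and 5.94 contralaterally. Ezh2 stood at 1.17 ± 0.633 CPM per kb, below its paralogue Ezh1 (4.91 ± 1.32) and below the core subunit genes Eed (20.2 ± 4.91) and Suz12 (14.4 ± 4.98). The sides overlapped for both genes.

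The sorting gate could be read in the levels. Pecam1, which encodes CD31, had 468, 271 and 419 CPM ipsilaterally and 349, 264 and 313 contralaterally. Itga2b, the platelet gene of CD41, had 6.73, 7.44 and 6.57 and 12.9, 16.4 and 11.5 CPM, and Ptprc, the gene of CD45, had 0.966 to 2.99 CPM. Per length, Pecam1 exceeded Itga2b by 14.1 to 60.8 times and Ptprc by 343 to 1275 times. All 20 pan-endothelial genes were detected in each library, and the label of endothelial cells held against these markers. Among platelet genes, Pf4 had 4.56 to 11.9 and Ppbp 4.86 to 14.6 CPM.

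Markers of other brain cells were low, with single exceptions in several lists. Over the 6 libraries, their summed levels were 72.3 to 162 CPM over 10 pericyte genes, 54.8 to 103 over 5 smooth muscle genes, 52.2 to 95.4 over 8 astrocyte genes and 18.6 to 65.7 over 8 oligodendrocyte genes. Rgs5 gave 36.6 to 87.6 CPM of the pericyte sum, while the defining receptor gene Pdgfrb had 1.28 to 5.00. Gja1, a connexin gene, gave 40.7 to 70.0 CPM of the astrocyte sum, while Gfap had at most 0.193 and Aldh1l1 was at 0 in 5 libraries. In the 9-gene neuron list, which summed to 66.5 to 193 CPM, Stmn2 alone gave 60.7 to 182 and the other 8 genes stayed under 10 CPM, with Snap25 at 0.101 to 1.14 and Rbfox3 at 0 to 0.331. The 11-gene microglia list summed to 35.3 to 64.7 CPM, and its members Cx3cr1, Tmem119 and C1qb were at 0 in at least 3 libraries each. Fibroblast genes summed to 3.98 to 7.84 CPM over 6 genes, precursors of oligodendrocytes to 0.611 to 4.85 over 6, with C1ql1 at 0 counts in all 6 libraries, and leukocyte genes to 9.77 to 26.5 over 8. The transthyretin gene Ttr, abundant in choroid plexus, varied most: 0.341, 4.68 and 23.8 CPM ipsilaterally and 90.8, 17.7 and 17.3 contralaterally, with the other 4 genes of its list at or under 0.873 CPM.

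**Figure D2:**
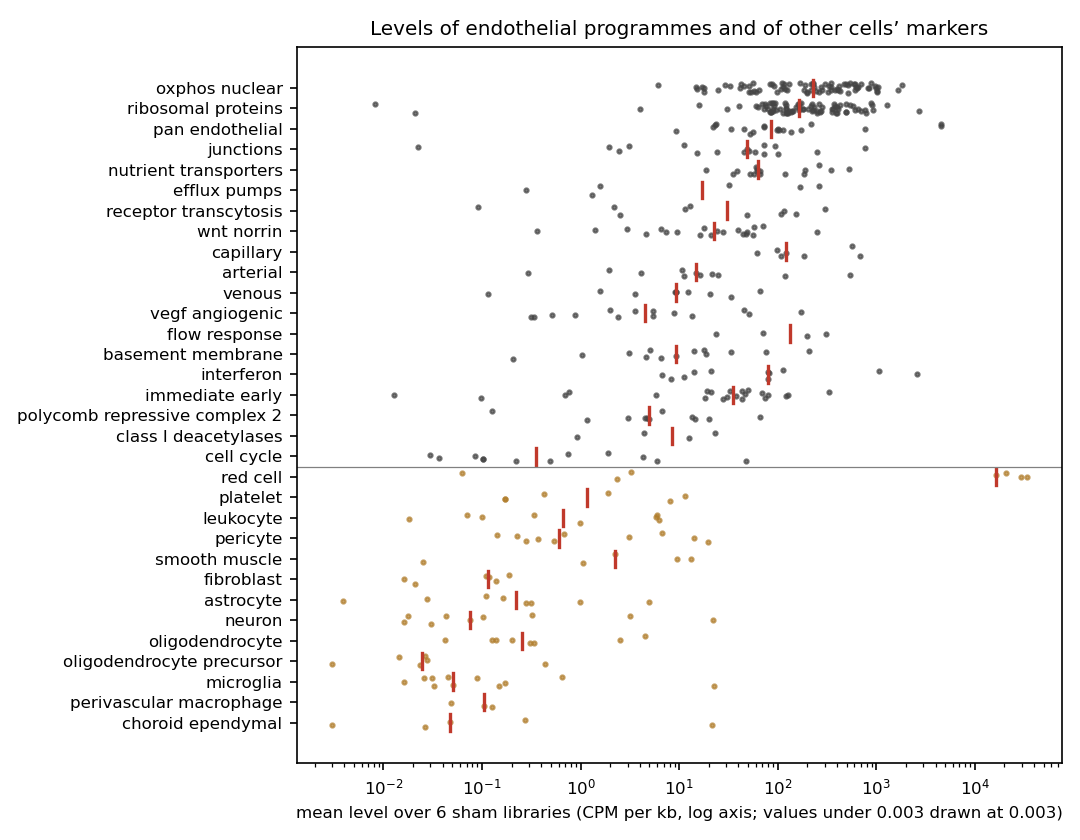
Mean level over the 6 sham libraries (CPM per kb, log axis) of every gene of 19 endothelial or cellular lists (grey points) and 13 lists of markers of other cells (brown points); red bars are list medians. Oxidative phosphorylation (230.6) and ribosomal genes (165) have the highest medians above the dividing line, and below it all lists but the red-cell list have medians under 3 CPM per kb.

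Promoter letters were set beside the ranking. A RefSeq promoter (build GRCm38.p6, 250 bases before to 50 after the start) was matched by symbol for 16526 genes, of which 370 belonged to the 500 highest genes by CPM per kb. The ETS core CCGGAA, searched on both strands, was in 35.7% of those 370 windows, 32.8% of the 3509 at later ranks up to 5000, 29.5% of the 3981 at ranks from there to 10000, 9.24% of the 8666 lower ones, and 19.7% of all. The TATAAA box had a different profile: 11.9%, 6.81%, 6.15% and 18.4% in the same order, and 12.9% of all. For CCAAT the 4 shares were 41.9%, 39.6%, 38.0% and 38.7% (38.8% of all), and for the GC box GGGCGG 57.3%, 66.6%, 67.3% and 31.6% (48.2% of all). The median number of CG dinucleotides in these windows was 19, 22, 21 and 5. For the pan-endothelial list 11 promoters were matched, with a median of 6 CG dinucleotides. Of these 11, 1 (9.09%) held the ETS core, 2 TATAAA, 4 CCAAT and 4 the GC box. The 150 bases before the start are printed for the junction gene Cldn5 and the receptor gene Flt1, the leading endothelial genes of their lists, with matches to these 4 motifs in capitals (5′ to 3′ on the gene's strand).

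Cldn5 (chr16:18776697-18776846, plus strand): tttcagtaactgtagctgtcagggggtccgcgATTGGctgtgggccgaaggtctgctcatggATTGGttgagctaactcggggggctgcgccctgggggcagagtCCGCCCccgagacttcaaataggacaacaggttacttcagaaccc
Flt1 (chr5:147726012-147726161, minus strand): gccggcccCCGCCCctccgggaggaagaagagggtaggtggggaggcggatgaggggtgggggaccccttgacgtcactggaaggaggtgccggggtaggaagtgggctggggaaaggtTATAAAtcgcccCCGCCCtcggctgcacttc

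A match is a description of letters, not a bound site. In this window Cldn5 held 2 CCAAT boxes and 1 GC box, all as reverse complements, and Flt1 held 1 TATAAA and 2 GC boxes. The windows held 7 and 9 CG dinucleotides.

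How far the 6 libraries differed from each other depended on the gene. Among the 1778 genes whose mean reached 100 CPM, the coefficient of variation (SD divided by mean) had a median of 0.264. It was below 0.1 for 57 genes and above 0.5 for 58. The steadiest was App, the amyloid precursor gene, at 0.0251, with 863, 882 and 904 CPM ipsilaterally and 857, 910.5 and 869 contralaterally. Nap1l1, Akap12, Glud1 and Ptp4a2 followed. The most variable were 9 predicted genes: Gm10800 and Gm10801 (chromosome 2), Gm10717, Gm10718, Gm10719, Gm10721, Gm10722 and Gm11168 (chromosome 9) and Gm21738 (chromosome 14), a set chosen after values had been seen. Gm10800 had 4747, 44413 and 26848 CPM ipsilaterally and 4537, 7938 and 2950.3 contralaterally. It was the most abundant of all genes by count in ipsilateral replicates 2 and 3, and the sides overlapped because ipsilateral replicate 1 lay among the contralateral libraries. Its ratio to Gm10801 stayed at 11.7 to 13.3 although the level of both moved by more than an order of magnitude.

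Whether the sides of the sham mice differed was tested next. The series held no unoperated mice, so an effect of the operation cannot be told apart from other differences between the sides. No gene of 17094 passed an adjusted p of 0.05 (0% called, edgeR quasi-likelihood test with Benjamini-Hochberg adjustment, smallest adjusted p = 0.9997). An unadjusted p under 0.05 was reached by 317 genes (1.85%), fewer than the 854.7 that uniform p-values would give: 121 were higher ipsilaterally (0.708% of the genes tested) and 196 lower (1.15%). Among the 7859 genes whose mean reached 10 CPM, 10 were higher and 178 lower at that threshold. This fit shares 1 estimate of the spread with the other 12 libraries. Fitted to the sham libraries alone, edgeR still called 0 of 13673 genes (smallest adjusted p = 0.494), with 1298 (9.49%) at an unadjusted p under 0.05 against 683.65 expected. The common biological coefficient of variation was 0.774 in the fit of all libraries and 0.443 in the fit of the sham libraries. DESeq2 on all libraries called 6 genes (0.0351%), with 484 (2.83%) at an unadjusted p under 0.05, and voom with sample weights called 1 (0.00585%), with 2771 (16.2%). The 6 were Npw, Glod5, Zar1l, Arl13a, Gm5741 and 1700001J03Rik, none with more than 21 counts in any sham library against highest counts of 87 to 902 in the other 12 libraries. The 1 was Plpp2, a lipid phosphatase gene, with 0 counts in the 3 ipsilateral libraries and 68, 52 and 16 in the contralateral ones. These 7 genes were named after their values were seen. With 1 library left out, edgeR called 0 genes in each of the 6 fits, and the count at an unadjusted p under 0.05 fell to 205 without contralateral replicate 3, 207 without ipsilateral replicate 1 and 211 without ipsilateral replicate 2.

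The values of the 3 libraries of a side did not overlap with those of the other for 1840 genes that were higher ipsilaterally (10.8%) and 937 that were lower (5.48%). In either direction the share was 16.2%. For 3 against 3 exchangeable libraries without ties, a gene has a probability of 0.1 of no overlap in either direction. Among genes whose mean reached 10 CPM, 809 were higher and 768 lower without overlap, of 7859. From these, with a mean count of at least 50 on a side, the 6 higher and 6 lower genes with the smallest unadjusted p were taken as values that did not pass the test. Log2 differences are ipsilateral minus contralateral, with the standard error of the edgeR fit.

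Fosb, an immediate early transcription factor gene, had 188, 290.4 and 239.9 CPM ipsilaterally and 97.8, 131 and 108 contralaterally. All 3 ipsilateral values lay above the contralateral ones, at a log2 difference of 1.00 ± 0.35 (edgeR, unadjusted p = 0.00908). Zswim4 had 19.1, 23.8 and 34.9 CPM against 12.6, 5.94 and 5.18, a difference of 1.63 ± 0.49. For Parg, the gene of the enzyme that removes poly(ADP-ribose), the libraries gave 25.7, 49.1 and 17.4 CPM against 15.5, 11.7 and 7.96. Its contralateral replicate 1 came within 2 CPM of ipsilateral replicate 3. Fgl2 and Gpr135 were at low levels. Both met the minimum mean count of 50 on the ipsilateral side only. Their contralateral values lay near or under the level of 3 counts, so the size of their side difference is uncertain. Fgl2 had 0.426, 3.83 and 0.552 CPM ipsilaterally, where replicate 2 was far above the other two, and 0.0507, 0 and 0.0475 contralaterally, under the level of 3 counts. Gpr135 had 2.64, 2.76 and 2.37 CPM ipsilaterally and 0.101, 0.0679 and 0 contralaterally.

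On the lower side, Mgp, whose protein inhibits calcification and marks arterial cells, had 126, 54.6 and 74.1 CPM ipsilaterally and 206, 163 and 211 contralaterally. The contralateral libraries were all higher, at a log2 difference of −1.26 ± 0.43 (edgeR, unadjusted p = 0.00826). Prdx1, a peroxide-reducing enzyme gene of high level, had 1152, 1769 and 1500.1 CPM against 2374, 2879 and 3285, a difference of −1.04 ± 0.36. Stmn2, the neuron-list gene, had 113, 60.7 and 91.1 CPM against 176, 127 and 182, a difference of −0.95 ± 0.33. The 3 others were the proteasome gene Psmb7 (−1.06 ± 0.35) and the mitochondrial protein genes Dnajc15 (−1.11 ± 0.38) and Tmem126a (−0.83 ± 0.29). Psmb7 shares 11.8% of its exon bases with Nek6 on the opposite strand, so its counts are uncertain. Vcam1, the gene of a leukocyte adhesion molecule that veins express most, had 94.6, 86.1 and 56.2 CPM against 151, 147 and 119 and was lower ipsilaterally without overlap, by a log2 difference of −0.90 ± 0.32 (edgeR, unadjusted p = 0.0104).

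**Figure D3:**
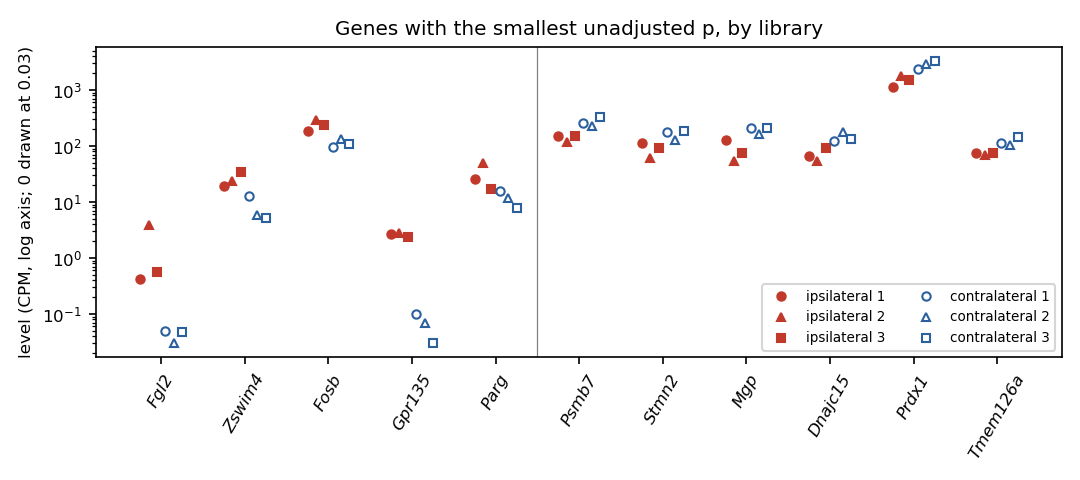
Level (CPM, log axis) in each library of 5 of the genes that were higher ipsilaterally (left of the line) and the 6 that were lower (right), chosen by the smallest unadjusted p among genes without overlap; filled symbols are ipsilateral, open symbols contralateral. None passed the adjusted threshold. The gaps drawn widest are those of Fgl2 and Gpr135, whose contralateral values lay near or under the level of 3 counts. Depth therefore does not resolve the size of these gaps.

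Genes of protein synthesis and respiration, most of them short, had lower estimates in the ipsilateral libraries. Of 81 ribosomal protein genes tested, 80 had a lower estimate and 1 a higher one, with a median log2 difference of −0.67, against 7723 lower and 9371 higher and a median of 0.07 over the genes tested. Over genes whose mean reached 10 CPM, 4526 were lower and 3333 higher, with a median of −0.08. The sides did not overlap for 37 of the 81 ribosomal genes, all lower ipsilaterally (5.48% over the genes tested, and 768 of the 7859 above 10 CPM). Of the 81, 3 were lower at an unadjusted p under 0.05 (1.15% over the genes tested, and 178 of the 7859 above 10 CPM). Rps27a had 334, 376 and 503 CPM ipsilaterally and 618, 874 and 591 contralaterally, and Rpl22l1 had 124, 192 and 185 and 241, 404 and 200.5. Of 77 oxidative phosphorylation genes, 75 had a lower estimate, with a median of −0.74. At an unadjusted p under 0.05, 9 of them were lower, beside the same 1.15% and 178 of 7859. Without overlap, 36 were lower ipsilaterally and 1 was higher. Ndufa4 had 790.0, 989 and 1167 CPM ipsilaterally and 1466, 2453 and 1599.8 contralaterally. None of these genes passed the adjusted test. For the summed level, the ratio of the side means was 0.656 for ribosomal genes and 0.624 for oxidative phosphorylation genes. On the unscaled total these ratios became 0.793 and 0.752, and the sides overlapped for both sums. Of the top 25 by level, 23 had a lower ipsilateral estimate and 13 were lower without overlap (5.48% over the genes tested). Of these 25 genes, 24 were shorter than 2000 bases. Among genes above 10 CPM, the shortest of 5 groups by length had 1429 of 1572 genes lower.

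Feature length moved with this difference. Over 7859 genes whose mean reached 10 CPM, the Spearman correlation across genes between the side difference and feature length was 0.552. Genes are not independent replicates, so no test is given. Genes were put in 5 equal groups by length. In the shortest (median length 1718 bases), 1429 of 1572 genes had a lower ipsilateral estimate, and the median log2 difference was −0.56. In the longest group (median length 10748 bases) it was 0.18. The libraries did not follow the sides cleanly. In the shortest group, the median deviation from the mean of the 6 libraries was −0.06, −0.42 and −0.11 in the ipsilateral libraries and 0.28, −0.13 and 0.48 in the contralateral ones. Contralateral replicate 2 thus lay with the ipsilateral libraries. After the trend with length was removed from each library, a setting added after seeing the data, the medians were −0.29 for ribosomal and −0.22 for oxidative phosphorylation genes, with 73 of 81 and 70 of 77 still lower. That analysis called 0 genes in edgeR, with 254 at an unadjusted p under 0.05.

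**Figure D4:**
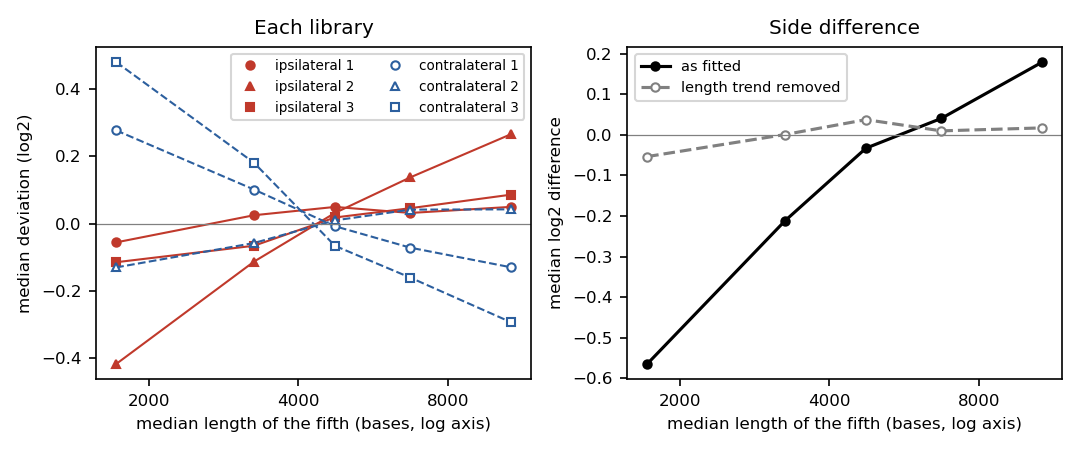
Left, median deviation (log2) of each sham library from the mean of the 6 in 5 equal groups of genes by feature length (bases, log axis). Right, median log2 side difference, ipsilateral minus contralateral, in the same groups, as fitted and with each library's length trend removed. The fitted difference rises from −0.56 to 0.18 with length, and contralateral replicate 2 follows the ipsilateral libraries.

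Of 21 immediate early genes tested, 13 had a higher and 8 a lower ipsilateral estimate, with a median log2 difference of 0.20, beside 9371 higher and 7723 lower over the genes tested. Without ipsilateral replicate 1 the list had 11 higher and 10 lower estimates and a median of 0.02. In the fit of all libraries 6 did not overlap, all higher ipsilaterally (10.8% over all genes). The 6 were Dusp1, Btg2, Zfp36, Ccn1, Fosb and Nr4a2. Dusp1, which encodes a phosphatase of MAP kinases, had 453, 501 and 514 CPM against 356, 367 and 323, and Zfp36, whose protein speeds decay of short-lived mRNAs, had 224, 193 and 231 against 142, 141 and 122. Fos had 686, 1178 and 1080.4 CPM ipsilaterally and 499.7, 873 and 415 contralaterally and overlapped through contralateral replicate 2. The summed level of the list was 3486, 3827 and 3976 CPM ipsilaterally and 2629.8, 3207 and 2339 contralaterally. With the length trend removed the median was 0.46, with 18 higher and 3 lower, beside 10552 higher and 6542 lower over the genes tested. Fosb alone had an unadjusted p under 0.05. The scaling bears on such sums: the TMM factors were 1.20, 1.14 and 1.11 ipsilaterally and 0.975, 1.00 and 0.875 contralaterally, and the ratio of the side means of this list was 1.38 with them and 1.66 on the unscaled total.

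Arterial, venous and interferon genes had lower ipsilateral medians. Of 11 arterial genes, 9 had a lower estimate (median −0.30), and the list summed to 1076, 673 and 719 CPM ipsilaterally and 1296, 1109 and 1186 contralaterally, without overlap. Its median was −0.14 without ipsilateral replicate 2, with 7 lower and 4 higher estimates, −0.51 without ipsilateral replicate 1, and −0.18 with the length trend removed. The ratio of the side means was 0.687, and 0.839 on the unscaled total, where the sides overlapped. Gkn3, its most abundant member, had 505, 256 and 269 CPM against 659, 475 and 593, and Mgp was the 1 member whose sides did not overlap. Venous genes had 6 lower and 4 higher estimates (median −0.37) and summed to 874, 934 and 724 CPM against 982, 1206 and 945, a ratio of 0.808 that became 0.976 on the unscaled total. The interferon list had 8 lower and 3 higher estimates (median −0.36), which became −0.02 with the length trend removed. Junction, capillary, Wnt and pan-endothelial lists had medians between −0.05 and 0.10. Their counts of higher and lower estimates were 10 and 7, 5 and 2, 8 and 12, and 8 and 12.

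On the sides, the globin share and the globin level gave different pictures. The share of counts overlapped, since ipsilateral replicate 1 (7.32%) exceeded contralateral replicate 2 (7.27%). Its means were 5.15% ± 2.48 ipsilaterally and 9.70% ± 2.13 contralaterally (SD, n = 3 each, two-sided exact permutation p = 0.2, adjusted p = 0.459 over 39 such values). In CPM, each of the 4 genes was higher in all contralateral libraries, with log2 differences from −1.18 ± 0.68 for Hba-a1 to −1.48 ± 0.80 for Hbb-bt, none past the test. With the length trend removed, these were −0.58 for Hba-a1 and −0.77 for Hbb-bt. The predicted genes, chosen by their spread over the sham libraries, took 3.80% ± 2.97 ipsilaterally and 0.666% ± 0.365 contralaterally (SD, n = 3 each, two-sided exact permutation p = 0.2, adjusted p = 0.459). The ratio of these means was 5.70 and became 3.52 without ipsilateral replicate 2. Of the 39 values per library, none had an adjusted exact p under 0.39. With 3 against 3 libraries the smallest exact p is 0.1, so this test could not reach 0.05. With the globin genes left out before scaling, the ribosomal median was −0.65 and the oxidative phosphorylation median −0.72, with 0 genes called by edgeR. With the predicted genes left out, they were −0.71 and −0.78, again with 0 called.

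**Figure D5:**
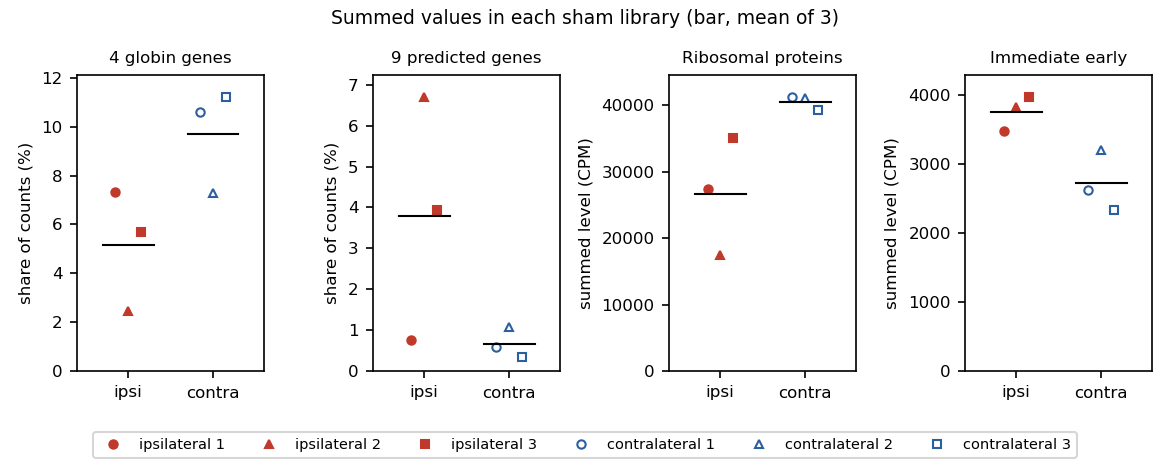
Share of the library's counts on 4 globin genes and on 9 predicted genes (%), and summed level of the ribosomal and immediate early lists (CPM), in each sham library; bars are means of 3 libraries and symbols mark replicates. After TMM scaling, the ribosomal sum lies between 17400 and 35028 CPM ipsilaterally and between 39244 and 41267 contralaterally, and the immediate early sum between 3486 and 3976 against 2339 and 3207. On the unscaled total the sides overlap for the ribosomal sum.

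The genes of the sorting gate and of the study's deletions gave no call either. The log2 side difference was 0.24 ± 0.31 for Pecam1, −1.06 ± 0.73 for Itga2b, −0.32 ± 0.32 for Hdac2 and 0.48 ± 0.86 for Ezh2. With 1 library left out, Pecam1 ranged from 0.05 (without ipsilateral replicate 1) to 0.47 (without ipsilateral replicate 2), Hdac2 from −0.55 (without contralateral replicate 1) to −0.18 (without ipsilateral replicate 3), and Ezh2 from 0.02 (without contralateral replicate 2) to 1.21 (without contralateral replicate 1). Itga2b was lower in every ipsilateral library than in any contralateral one. A 95% interval of about 2 standard errors on either side would include 0 for all 4.

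The side difference of sham mice was last set against that of occluded WT mice, as the difference of the 2 differences. With 0 of 17094 genes called (0% called, edgeR quasi-likelihood test, smallest adjusted p = 0.941) and 578 at an unadjusted p under 0.05 (3.38%), no gene passed. Of the 578, 45 were positive and 533 negative. A negative value means that ipsilateral minus contralateral was lower in occluded than in sham mice. The sign alone does not show which side was higher in either group. For Fosb the difference was −1.41 ± 0.49 (edgeR, unadjusted p = 0.00876), and for Gm10800 it was −3.66 ± 1.59 (edgeR, unadjusted p = 0.0317). Fosb had been chosen by its sham side difference, which is subtracted here, and Gm10800 by its spread over the sham libraries. Their signs and p-values follow in part from that choice, so no conclusion is drawn from them. The count of 578 rested on single libraries: it was 317 without ipsilateral replicate 2 of sham, 329 without ipsilateral replicate 2 of MCAO, 246 without contralateral replicate 1 of MCAO, and 898, 1051 and 1263 without ipsilateral replicate 3, contralateral replicate 2 and contralateral replicate 3 of MCAO, with 0 called in each.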

How the data were processed

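RNA was measured in 18 libraries of sorted mouse brain endothelial cells, of which the 6 sham libraries are described. The authors deposited 1 table of values per gene, which its name calls normalized counts. The values are whole numbers, with totals from 25791401 to 57576255 over the 18 libraries, and were treated here as raw counts. All tests, count floors and intervals rest on that reading, which was not tested. The submitters' processing notes name FastQC, cutadapt, STAR, featureCounts and DESeq2 and the build mm10. The strand setting and annotation are not given in the sources used here. Counts of 1 to 20 were even in 81.7% to 86.8% of cases per library, which bears on whether both mates of a pair were counted. Deposited starts plus 1 matched GENCODE M21 for 21341 of 21636 symbols.

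Genes with at least 10 counts in at least 3 of the 18 libraries were tested (17094) with edgeR 4.0.16 (TMM scaling, quasi-likelihood F-test, 6 group means, Benjamini-Hochberg adjustment, threshold 0.05) in R 4.3.3. The fit used all 18 libraries so that the groups share 1 estimate of the spread. Exact permutation tests compared single values per library. DESeq2 1.42.0 and limma 3.58.1 served as alternatives, and each library was left out in turn. The estimated log2 differences were checked on counts simulated from the fitted model. That check set no limit on false calls or on missed genes.

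Named genes were the 25 highest per length, the 2 highest of each list and its member with the smallest p, the 6 higher and 6 lower genes with the smallest unadjusted p without overlap, the 5 steadiest and 5 most variable genes above 100 CPM, the gate and target genes, and other list members given by level. The members and gene lists were chosen with earlier results of these data known. Some genes that this rule or the lists name are not reported here.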

Additional observations from a re-analysis of the deposited data

How the results depend on the processing

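The side difference stayed at 0 called genes under edgeR in every alternative run: other scalings, filters, sham libraries alone, the replicate block, halved counts, globins or predicted genes left out, the length trend removed, and each library left out. DESeq2 called 6 genes and voom with sample weights 1. The 317 genes at an unadjusted p under 0.05 became 1298 with sham libraries alone, 484 with DESeq2 and 2771 with voom with sample weights, and ranged from 205 to 417 with 1 sham library left out. The interaction called 6 genes with DESeq2 and 0 otherwise; its 578 genes at an unadjusted p under 0.05 became 1148 with DESeq2 and 1099 with no filter, and ranged from 246 to 1263 with 1 library left out. The oxidative phosphorylation ratio of side means (0.624) became 0.796 with the length trend removed. On the unscaled total the immediate early ratio (1.38) became 1.66 and the venous ratio (0.808) became 0.976. Without division by length, 15 of the top 25 remained. Of 408 alternative values for 23 genes, 406 kept their direction; Ptprc ranged from −0.75 to 0.29 (log2) with 1 library left out. The cause of these changes was not tested. Removing the length trend, halving counts and leaving out the predicted genes were chosen after seeing the data.

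Replicate numbers were tried as a block in the sham libraries, where edgeR called 0 genes and 1703 had an unadjusted p under 0.05. Deviations of same-numbered libraries correlated at 0.376, 0.350 and −0.127. Ipsilateral replicates 1 and 2 correlated best with their own number, and ipsilateral replicate 3 best with contralateral replicate 2 (0.103). The common biological coefficient of variation was 0.413 with the block and 0.443 without it. With 3 libraries a side, these values cannot decide whether the numbers mark pairs. The labels do not say so either, and the main fit therefore used no block.

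Depth did not allow a level below 3 counts (0.0639 to 0.102 CPM) to be told from 0.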

Other observations

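Genes of stress and inflammation were also read in the 6 sham libraries. The heat-shock list, made of chaperone genes, summed to 1681, 1521 and 1702 CPM ipsilaterally and 1814, 1545 and 2331 contralaterally. The constitutive chaperone gene Hspa8 had 695, 758 and 737 CPM against 782, 753 and 871 and the inducible Hspa1a had 10.4 to 21.6 CPM in all 6. Of the 10 genes, 5 had a higher and 5 a lower ipsilateral estimate, and the sides overlapped for each.

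In the inflammation and adhesion list, Nfkbia, the gene of an inhibitor of NF-kappaB, stood first at 359 ± 105 CPM per kb. Of the leukocyte-capture genes, Vcam1 had 56.2 to 151 CPM, Icam1 15.6 to 31.7, Sele 0.0951 to 1.25, Selp 0.0679 to 1.30, and the cytokine genes Il6 and Ccl2 0.0507 to 0.221 and 0 to 4.16 CPM. Lcn2, often induced in injured brain, had 1.41 to 4.62 CPM. The neutrophil genes S100a8 and S100a9 varied between libraries, with 8.95, 8.24 and 0.855 CPM ipsilaterally and 0.203, 6.32 and 0.0475 contralaterally for S100a8. The high libraries for S100a8 were ipsilateral replicates 1 and 2 and contralateral replicate 2, so they did not follow the sides.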
